A study of Oryctolagus cuniculus with 20 samples.

Results

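Rabbit carotid arteries that had been moved into a vein were compared between 30 and 14 days after surgery, with 4 graft libraries on each day, 8 of the 20 libraries in the series. The members were chosen by the labels alone (experimental group, 14 or 30 days), and the comparison covers the 8657 of 23669 genes that reached 1 FPKM in at least 4 of the 20 libraries. FPKM, fragments mapped per kilobase of transcript, is a level scaled to both transcript length and library depth. The series also holds the opposite, unoperated common carotid artery of each day and unoperated external jugular vein, 4 libraries each. No agent, genotype, strain or age is given. All samples, the unoperated vessels included, carry the same treatment label, transplantation, and the cell line name HASMC, although the tissue labels name rabbit vessels. The 4 libraries of a group are labelled as biological replicates, but no label ties a library to an animal of its own, and the spread behind the p-values may be partly technical.

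A piece of artery moved into a vein heals as a graft under venous flow. In injured arteries, medial smooth muscle cells are known to lower their contractile proteins, divide and remake the matrix around them, while macrophages enter and clear damaged tissue. Later these cells can regain contractile proteins and lay down basement membrane, and the adventitia, the outer fibroblast layer, reforms. The comparison of the later with the earlier graft asks which of these programs were still moving after the day 14 collection.

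The graft libraries carried some defining genes of a vessel wall, while others were low or listed at 0. ACTA2, smooth muscle actin, lay between 468 and 825 FPKM at day 14 and between 1213 and 1617 at day 30. MYH11, smooth muscle myosin, lay between 0.19 and 5.76 FPKM in the grafts, against means of 29.1 and 30.2 in unoperated arteries of day 14 and day 30. The smooth muscle markers LMOD1 and TAGLN lay between 7.41 and 46.35 FPKM and between 48.4 and 165 in the grafts. Their means in the unoperated arteries were 460 and 267 for LMOD1 and 837 and 573.5 for TAGLN. VWF, the endothelial von Willebrand factor, lay between 43.2 and 150 FPKM in all 8 grafts. PECAM1, an adhesion molecule of endothelial junctions, was listed at 0 in 6 graft libraries, at 3.06 FPKM in replicate 1 of day 14 and at 0.72 in replicate 4 of day 30. Its mean was 0 in the unoperated arteries of both days and 0.55 in vein. Macrophage CD68 lay between 10.5 and 146 FPKM in the grafts and was listed at 0 in the unoperated arteries and vein. Of the other macrophage markers, CD14 lay between 84.3 and 309 FPKM in the grafts, while CSF1R stayed at or under 2.87. CD163 lay between 0 and 3.35 FPKM in the grafts, against a vein mean of 1.98. Skeletal muscle ACTA1 stayed at or under 0.73 FPKM in all 8 grafts. The other skeletal muscle marker, CKM, stood at 6.35, 8.74, 2.42 and 0.27 FPKM at day 14 and at or under 1.14 at day 30. Its means in the unoperated arteries were 11.3 and 13.4 FPKM. The mitochondrial genome took between 3.98 and 32.7% of the summed FPKM in grafts of day 14 and between 10.7 and 29.1% in those of day 30.

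Grafts of day 14 varied most. The SD of log2 levels, taken as a median over 1257 genes of at least 30 FPKM, was 0.323 in grafts of day 14 and 0.189 in grafts of day 30. One library of each day resembled a blend of others. Replicate 4 of day 30 correlated with the other 3 at r = 0.914 to 0.922 over 4620 genes, against 0.860 to 0.873 among those 3. Replicate 3 of day 14 correlated at 0.916 with replicate 4 and 0.892 with replicate 1, while replicates 1, 2 and 4 correlated at 0.782 to 0.883. With replicate 2 it correlated at 0.843, below the 0.883 between replicates 1 and 2, so its likeness was to replicates 1 and 4 only. The correlations are across genes, which are not independent replicates. The labels do not state a pool. The counts over all genes are therefore given with and without these 2 libraries. Without both, no member of any of the 43 gene lists described below was called, so every list count rests on all 8 grafts.

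Between day 14 and day 30, 321 of 8657 genes (3.71%) changed in the grafts at an adjusted p under 0.05 in limma, 218 higher (2.52%) and 103 lower (1.19%). Their median size was 1.21 on the log2 scale, and 208 changed by more than 1. For all 321 the 4 grafts of one day lay apart from the 4 of the other, which held for 1363 of all genes (15.7%), higher for 7.29% and lower for 8.46%. Of the 321, 43 have no usable symbol. In simulated data with the spread of each group, 29 of 178 calls were false, so the 321 may hold more false calls than the threshold states. The fold changes are on the log2(FPKM + 1) scale, which understates the change of low genes. The median change of all genes was -0.04, and 0.13 when each library was scaled to the same sum, a scaling that left 312 higher and 14 lower calls.

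Leaving out both blend-like libraries left 1 call, a fall (adjusted p = 0.00199), and 1027 genes at an unadjusted p under 0.05, against 1944 with all 8. All 321 genes kept their direction and an unadjusted p under 0.05 among the 3 against 3 libraries. Without replicate 4 of day 30 alone there were 55 calls, 54 of them among the 321, and without replicate 3 of day 14 there were 92, of which 89 were among them. Without replicate 4 of day 14, or replicates 1 or 3 of day 30, 144, 147 and 171 calls were made. Of the 321, 49 were called with every one of the 8 libraries left out in turn. The direction of all 321 was again fixed by the lack of overlap. Of 69 changed genes picked by the naming rule, 20 were called each time.

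In the unoperated arteries, the same days differed at 1200 genes (13.9%), 682 higher (7.88%) and 518 lower (5.98%). Their 4 libraries of day 14 were close to one another, with a median SD of 0.0736, and their larger count of calls does not measure a larger change. The mitochondrial genome took between 22.6 and 24.3% of the summed FPKM in unoperated arteries of day 14. At day 30 it took between 4.39 and 7.81%, and 6 of its 13 genes were among the falls. The effect of this shift on the changes of other genes in unoperated arteries, and on the differences from the grafts, was not tested. Of the 321 graft genes, 47 changed in the same direction in the unoperated arteries and 27 in the opposite direction. The difference between the graft and the unoperated change passed its own test for 924 of all genes (10.7%; positive for 4.78%, negative for 5.89%) and for 186 of the 321. Without the 2 blend-like grafts, an alternative added after the data were seen, 295 genes passed that test, 292 of them among the 924 and 93 among the 321.

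**Figure D1:**
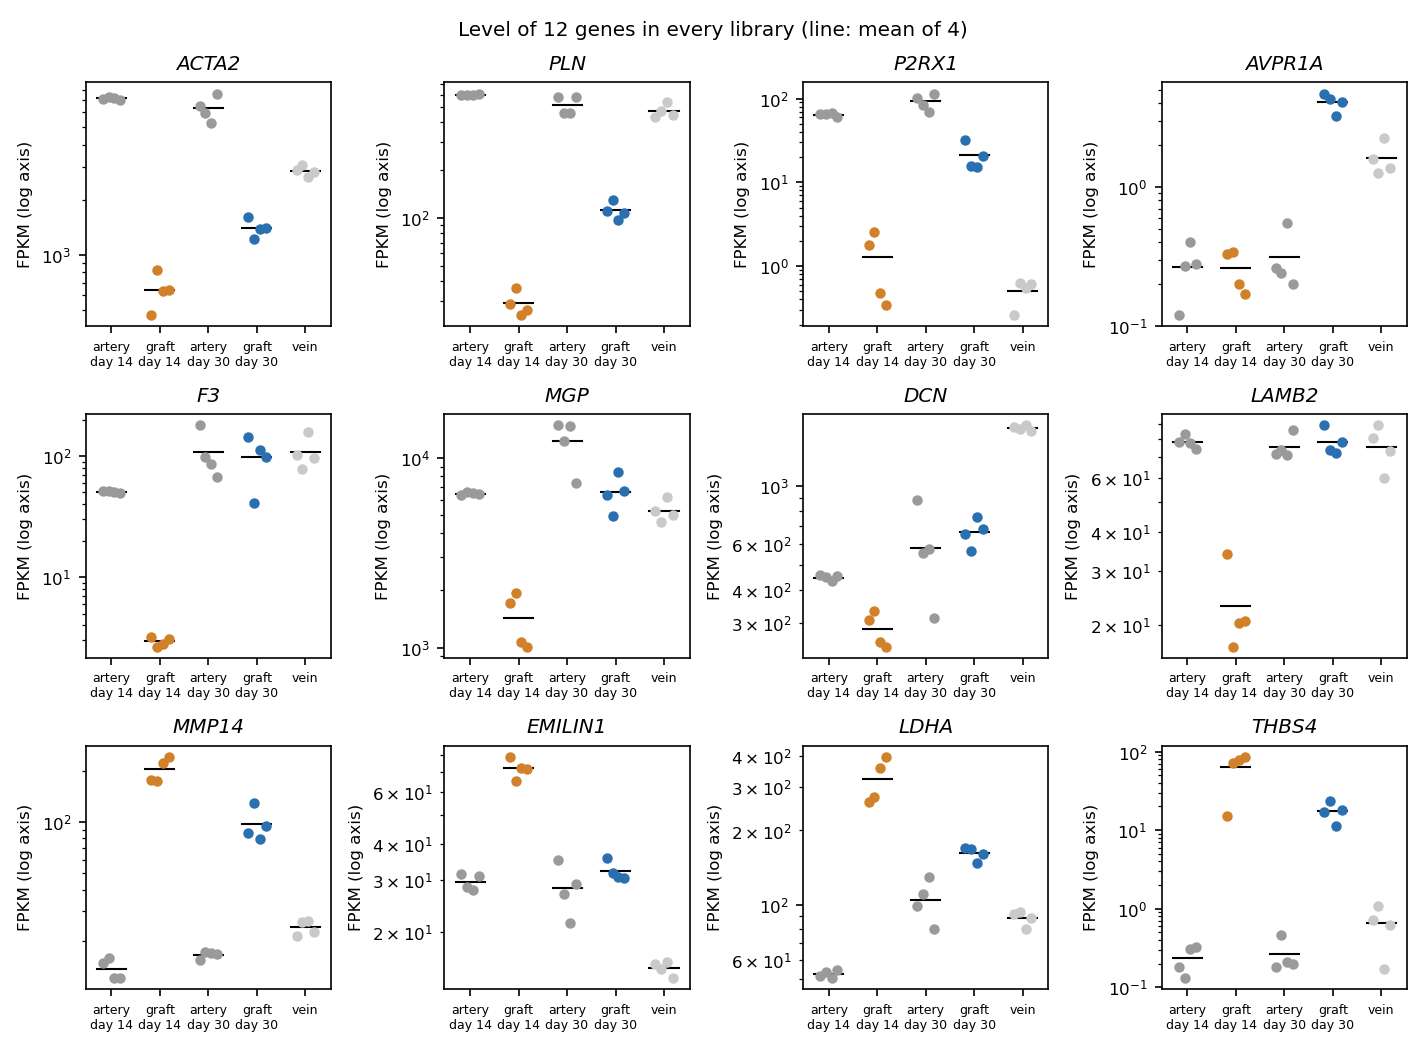
Level in FPKM on a log axis of 12 genes in each library of the unoperated artery and graft at day 14 and day 30 and of vein; points are the 4 libraries of a group and lines their means. The 4 blue points (graft, day 30) lie apart from the 4 orange points (graft, day 14) in all panels except THBS4, where replicate 1 of day 14 at 15.3 FPKM lies among the day 30 grafts.

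Smooth muscle genes of contraction and calcium handling rose in part. Of 23 contractile genes tested, 3 rose and none fell, with 19 above 0 and a median log2 change of 0.52. Over all genes 2.52% rose and 1.19% fell, the background for this and each later list count. In bulk tissue, fewer cells of a type and less RNA per cell cannot be told apart. ACTA2, the main actin of contractile smooth muscle, stood at 468, 825, 632 and 640 FPKM at day 14 and 1617, 1213, 1381 and 1395 at day 30. The lowest later graft lay above the highest earlier one, a log2 change of 1.15 (SE 0.20, adjusted p = 0.0237). SYNPO2, an actin-bundling protein of the Z-disc and dense body, rose from 4.30 ± 2.23 to 14.5 ± 3.18 FPKM (SD, n = 4 in each group), by 1.63 (SE 0.32, adjusted p = 0.0335). CASQ2, the calcium-binding protein of the sarcoplasmic reticulum, rose from 0.623 ± 0.185 to 4.39 ± 2.20 FPKM, by 1.64 (SE 0.30, adjusted p = 0.0263). Its level fell in the unoperated arteries over the same days, from 13.5 to 5.14 FPKM (log2 change -1.31, adjusted p = 0.0155).

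The heavy chain of smooth muscle myosin, MYH11, missed the threshold. It stood at 1.6, 2.60, 0.43 and 0.19 FPKM at day 14 and 5.76, 4.55, 5.55 and 4.18 at day 30. The groups did not overlap, and the adjusted p was 0.0503 for a log2 change of 1.58 (SE 0.35). Without replicate 2 of day 14, which held the highest early level, it passed (adjusted p = 0.0254, and up to 0.137 with other libraries left out). TAGLN, the actin-binding transgelin, had 108.9 FPKM in replicate 1 of day 14, above 105.7 in replicate 2 of day 30, so its groups overlapped (log2 change 0.98, adjusted p = 0.0906, and 0.0228 without that early library). MYOCD, the coactivator that drives contractile genes, stayed at or under 0.48 FPKM in every graft (0.37, adjusted p = 0.105). In the unoperated arteries MYOCD rose from 0.4 to 6.13 FPKM (2.29, adjusted p = 0.00281). The graft change was below that by 1.92 on the log2 scale (adjusted p of the difference = 0.00419). The ACTA2 call ended without replicate 3 or 4 of day 14 or replicate 1, 3 or 4 of day 30 (adjusted p up to 0.0879), and the SYNPO2 and CASQ2 calls held in 2 and 3 of the 8 leave-one-out fits.

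Some genes of calcium handling and purinergic signalling rose as well. Of 17 ion channel and calcium genes, 3 rose and none fell, with a median log2 change of 0.53. PLN, phospholamban, the brake on the calcium pump of the sarcoplasmic reticulum, stood at 28.8, 36.3, 24.4 and 26.1 FPKM at day 14 and 111, 130, 96.5 and 108 at day 30. The later grafts were all far above the earlier ones, and the log2 change was 1.92 (SE 0.15, adjusted p = 0.00138). P2RX1, the ATP-gated cation channel through which sympathetic ATP contracts arteries, stood at 1.79, 2.56, 0.48 and 0.34 FPKM and then 31.9, 15.7, 15.3 and 20.8. It was low in all early grafts and well above them in all later ones, a change of 3.32 (SE 0.37, adjusted p = 0.00565). ITPR1, an inositol trisphosphate receptor, rose from 5.17 ± 0.287 to 7.99 ± 0.507 FPKM, by 0.54 (adjusted p = 0.0420), but its call was lost whichever library was left out (adjusted p up to 0.125). PLN and P2RX1 were called in all 8 leave-one-out fits.

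Against the unoperated artery of the same day, most smooth muscle genes with a high level in that artery stayed low at day 30. Among 16 contractile genes with at least 10 FPKM in unoperated arteries of both days, the median graft level was 10.4% of the opposite artery at day 14 and 21.3% at day 30, and 11 of 16 were at a higher share at day 30. ACTA2 went from 8.94 to 22.1%, MYH11 from 4.15 to 16.6% and TAGLN from 7.98 to 22.2%. At day 30, 12 of the 16 were still under 50%, against 13 at day 14. PLN went from 4.83 to 21.6% and P2RX1 from 2.00 to 22.6%, while the median of the 12 ion channel and calcium genes was 30.8% and then 31.8%. The large-conductance potassium channel KCNMA1 stayed at 15.8 and then 15.0%. These shares are ratios of group means with no test. The cut selects genes by their level in unoperated arteries. It left out, among others, CASQ2 (4.63 and then 85.4%) and ITPR1 (43.2 and then 84.9%). A share can also rise because the unoperated level fell. LMOD1 fell there from 460 to 267 FPKM, with 24.1 and then 28.8 in the grafts.

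**Figure D2:**
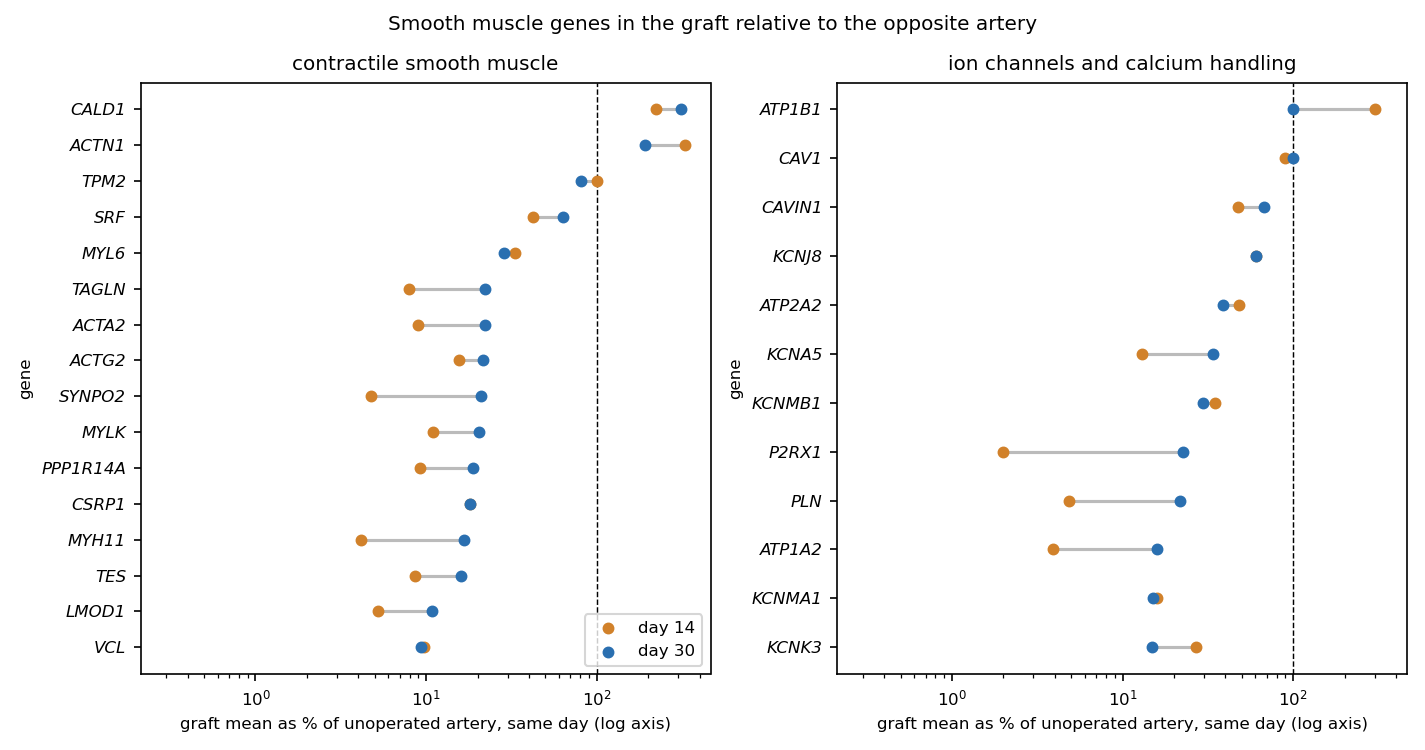
Mean graft level as a percentage of the mean of the unoperated artery of the same day (log axis), for 16 contractile and 12 ion channel and calcium genes of at least 10 FPKM in unoperated arteries of both days; orange is day 14, blue day 30, and the dashed line marks 100%. Most contractile genes lie under 50% on both days, with ACTA2 moving from 8.94 to 22.1%.

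Receptors for the pressor hormones vasopressin and angiotensin rose. Of 19 vasoactive receptor and cyclic nucleotide genes, 2 rose and none fell, with a median log2 change of 0.35. AVPR1A, the vasopressin receptor of smooth muscle, stood at 0.33, 0.34, 0.20 and 0.17 FPKM at day 14 and 4.70, 4.29, 3.22 and 4.11 at day 30. It was near the floor of the table in the early grafts and in unoperated arteries of both days (0.268 and 0.313 FPKM), and above 3 FPKM in every later graft (2.01, SE 0.15, adjusted p = 0.00119). AGTR1, the angiotensin II receptor, stood at 1.67, 1.58, 0.87 and 0.94 FPKM and then 7.49, 5.62, 7.84 and 6.14. Its later levels were near those of the unoperated arteries (4.47 and 5.17 FPKM), and the change was 1.79 (SE 0.19, adjusted p = 0.00365). Both calls held in all 8 leave-one-out fits. RGS5, a regulator of G protein signalling that marks mural cells, was at 197 ± 90.8 and 167 ± 33.4 FPKM (-0.13, adjusted p = 0.866), against 3294 and 2394 in the unoperated arteries.

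The largest rises with a symbol and at least 5 FPKM at day 30 came from genes of several kinds. F3, tissue factor, the cell-surface trigger of coagulation, stood at 3.19, 2.66, 2.80 and 3.10 FPKM at day 14 and 142, 41.2, 112 and 97.3 at day 30. The 4 early grafts were nearly alike and replicate 2 was the lowest of the later ones, and the log2 change was 4.53 (SE 0.34, adjusted p = 0.00135). F3 also rose in unoperated arteries, from 50.5 to 108 FPKM (0.98, adjusted p = 0.0493), and the graft rise was larger by 3.54 (SE 0.46, adjusted p of the difference = 0.000437). EPHB2, a receptor tyrosine kinase for ephrins, stood at 0.65, 1.46, 0.76 and 0.61 FPKM and then 10.1, 13.3, 12 and 10.9. No early graft reached 2 FPKM and no later one was under 10 (2.77, SE 0.18, adjusted p = 0.000826).

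A further 4 large rises started under 1 FPKM on average at day 14. G3BP1, which seeds stress granules, was listed at 0 in 3 grafts of day 14 and at 0.07 FPKM in the other, and stood at 4.77, 6.59, 4.53 and 5.37 FPKM at day 30 (2.62, SE 0.15, adjusted p = 0.000351). A listed 0 can be a failed estimate: 1267 tested genes had such a 0 in some graft, and 128 of these reached 20 FPKM in a different graft. RARRES1, a gene induced by retinoids, rose from 0.950 ± 0.687 to 9.42 ± 3.31 FPKM (2.43, adjusted p = 0.00925). IL17D, a cytokine, rose from 0.635 ± 0.734 to 7.25 ± 2.80 FPKM (2.37, adjusted p = 0.0221), and PDILT, a protein disulfide isomerase family member, from 0.803 ± 0.586 to 9.21 ± 5.82 (2.36, adjusted p = 0.0299). PDILT fell in the unoperated arteries, from 13.1 to 0.0950 FPKM (-3.69, adjusted p = 5.6e-07). F3, EPHB2, G3BP1 and RARRES1 were called in all 8 leave-one-out fits, IL17D in 5 and PDILT in 3.

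Of the largest rises, 3 belonged to metabolic enzymes whose levels were uneven at day 30. ADH1A, an alcohol dehydrogenase, stood at 0.55, 0.72, 0.29 and 0.14 FPKM and then 9.35, 2.69, 20.6 and 9.46 (2.78, SE 0.48, adjusted p = 0.0224). CES1, a carboxylesterase, stood at 1.35, 1.62, 1.99 and 1.77 FPKM and then 18.5, 4.28, 24.1 and 16.2 (2.44, SE 0.45, adjusted p = 0.0265). INMT, a methyltransferase of indole amines, had 0.46, 0.03, 0.09 and 0 FPKM and then 7.18, 1.08, 11.8 and 7.35 (2.53, SE 0.52, adjusted p = 0.0378). In all 3 genes replicate 3 was the highest of the later grafts and replicate 2 the lowest. The ADH1A call held in 4 of the 8 leave-one-out fits (adjusted p up to 0.0815). The CES1 and INMT calls held in 1 of the 8 leave-one-out fits, that without replicate 2 of day 30 (adjusted p up to 0.0905 and 0.122), and CES1 and INMT also rose in the unoperated arteries (1.84 and 1.65, adjusted p = 0.0482 and 0.00217).

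Fibroblast and adventitial genes held the highest share of changed members among the 43 gene lists. Of 18 tested, 8 rose and none fell, 16 were above 0, and the median log2 change was 1.12, against -0.04 over all genes. Their summed level lay between 1219 and 2640 FPKM at day 14 and between 4843 and 5386 at day 30. DCN, decorin, a small proteoglycan that binds collagen fibrils, stood at 307, 334, 253 and 243 FPKM at day 14 and 657, 564, 760 and 684 at day 30. The later levels were above all the earlier ones and near those of the unoperated arteries (446 and 581 FPKM), a change of 1.23 (SE 0.16, adjusted p = 0.00962). MFAP5, a microfibril glycoprotein, stood at 25.0, 45.1, 26.6 and 27.4 FPKM and then 95.0, 79.8, 95.1 and 93.7. Replicate 2 was the highest of the early and the lowest of the later grafts, and the change was 1.56 (SE 0.19, adjusted p = 0.00787).

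GSN, gelsolin, which severs actin filaments, rose from 851 ± 511 to 3267 ± 199 FPKM (2.17, adjusted p = 0.0404). The mean summed level of the fibroblast and adventitial list went from 1933 to 5132 FPKM, and most of that rise came from GSN. The retinaldehyde dehydrogenases ALDH1A1 and ALDH1A3 rose from 9.26 ± 1.87 to 24.2 ± 5.31 FPKM (1.29, adjusted p = 0.0163) and from 2.16 ± 0.724 to 10.7 ± 3.43 (1.87, adjusted p = 0.0111). THY1, a surface glycoprotein of fibroblasts, rose from 115 ± 24.5 to 206 ± 26.3 FPKM (0.85, adjusted p = 0.0336). PI16, a marker of adventitial fibroblasts, was at 32.4 ± 31.1 and 252 ± 37.7 FPKM with no overlap (3.63, SE 0.82), and missed the threshold at an adjusted p of 0.0528. DCN, MFAP5 and LAMA2, which also stand in the proteoglycan, elastic fibre and basement membrane lists, were called in all 8 leave-one-out fits, ALDH1A3 in 7, ALDH1A1 in 5, GSN in 2 and THY1 in 1 (adjusted p up to 0.122). The activated fibroblast gene POSTN was at 43.6 ± 23.6 and 50.2 ± 11.4 FPKM (0.38, adjusted p = 0.662). ADIPOQ, adiponectin of fat cells, rose with this group, from 66.2 ± 21.2 to 336 ± 43.5 FPKM (2.37, adjusted p = 0.00338), as the 1 changed gene of 8 adipocyte genes, whose summed level was 299 to 1433 FPKM and then 686 to 872; its part in the other rises was not tested.

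**Figure D3:**
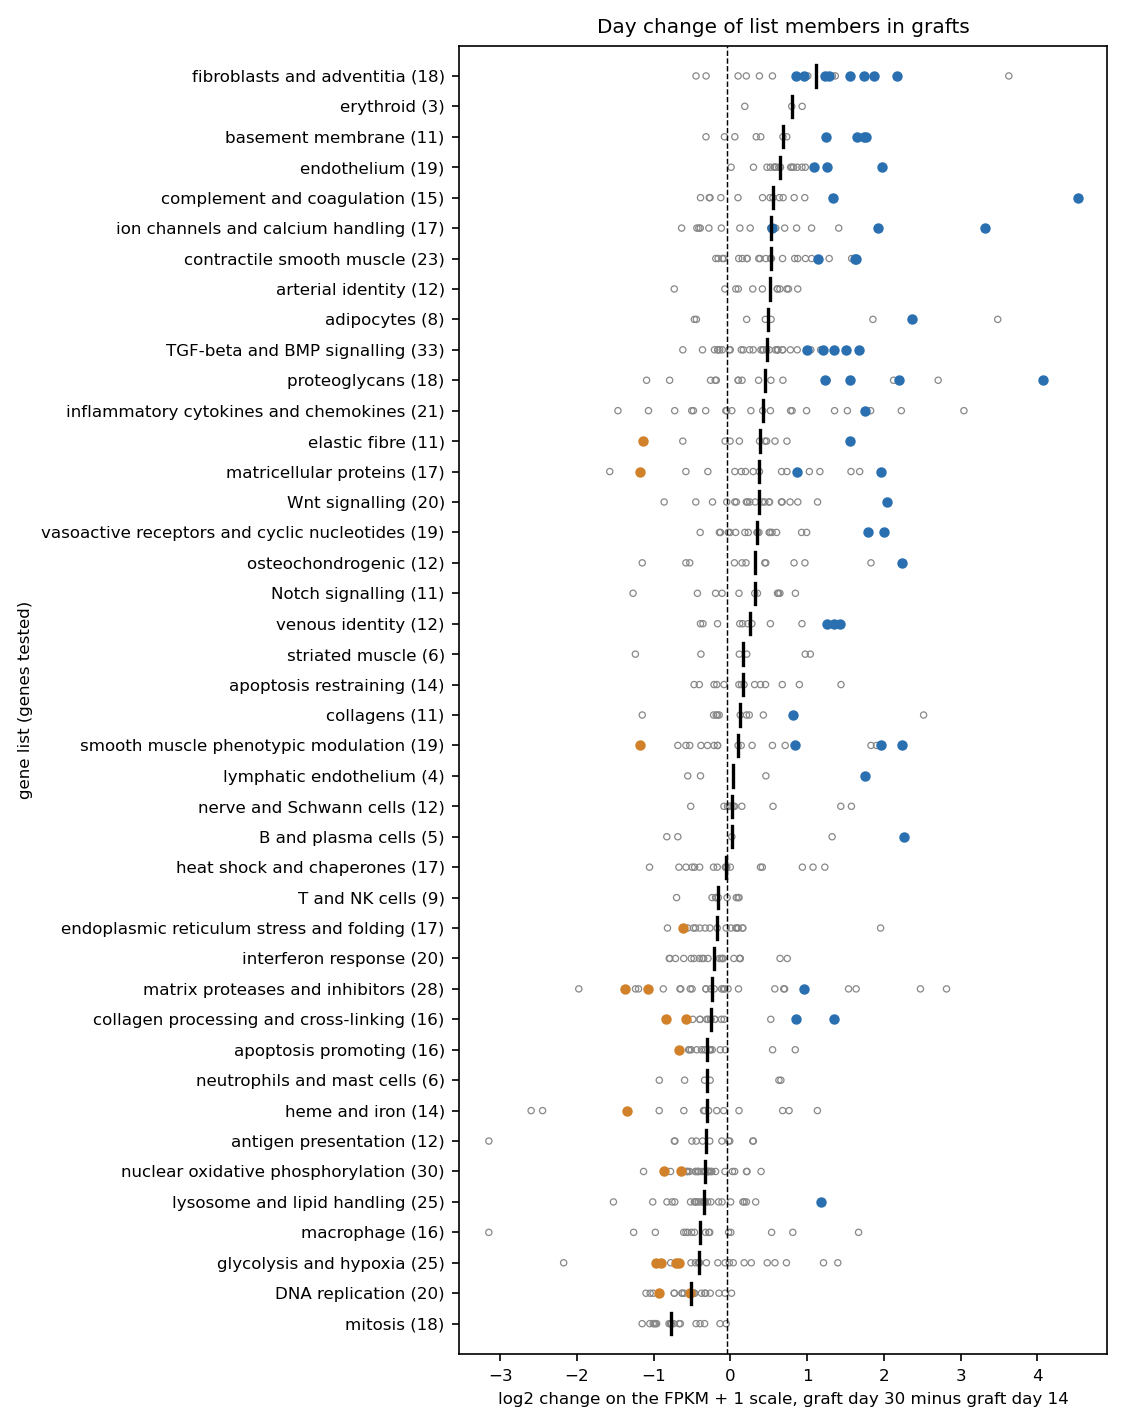
Log2 change on the FPKM + 1 scale, graft day 30 minus graft day 14, of the tested members of the gene lists (the mitochondrial genome left out), ordered by their median (black bar), with the number tested in parentheses; blue points rose and orange points fell at an adjusted p under 0.05, open points did not pass, and the dashed line is the median of all genes. Fibroblasts and adventitia lie highest, with a median of 1.12, and mitosis lowest, at -0.77.

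Small leucine-rich proteoglycans, which coat collagen fibrils, rose in part. Of 18 proteoglycan genes, 4 rose and none fell, with a median of 0.45. EPYC, epiphycan, best known from cartilage, stood at 1.35, 4.91, 0.90 and 0.59 FPKM at day 14 and 69.7, 15.6, 56.3 and 49.0 at day 30. Replicate 2 was the highest of the early and the lowest of the later grafts, and the change was 4.07 (SE 0.55, adjusted p = 0.0111). KERA, keratocan, rose from 0.373 ± 0.304 to 5.35 ± 1.65 FPKM (2.20, adjusted p = 0.00408) and PODN, podocan, from 10.2 ± 4.06 to 31.0 ± 5.63 (1.56, adjusted p = 0.0172). BGN, biglycan, the most abundant of the list at 1282 ± 155 and 1370 ± 57.7 FPKM, changed by 0.10 (adjusted p = 0.743), and LUM, lumican, by 0.10 (adjusted p = 0.908). The EPYC call ended without replicate 4 of day 30 (adjusted p = 0.0506), and that of PODN held in 3 of the 8 leave-one-out fits.

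A few basement membrane genes rose. Of 11 tested, 4 rose (3 laminin chains and a collagen IV chain), none fell and 7 did not pass, with a median of 0.68. LAMB2, the laminin beta chain of mature vessel and muscle basement membranes, stood at 34.2, 17.1, 20.3 and 20.6 FPKM at day 14 and 88.8, 73.7, 72.2 and 78.1 at day 30. Replicate 1 was the highest on each day, the later levels matched those of the unoperated arteries (78.5 and 75.8 FPKM), and the change was 1.76 (SE 0.20, adjusted p = 0.00592). LAMA2, the alpha chain of muscle laminin, stood at 1.61, 1.02, 1.83 and 1.87 FPKM and then 7.65, 6.23, 8.95 and 7.60 (1.74, SE 0.17, adjusted p = 0.00365). LAMA3, an alpha chain better known from epithelia, rose from 0.940 ± 0.389 to 5.02 ± 0.249 FPKM (1.65, adjusted p = 0.00365), above the unoperated arteries at 0.538 and 0.780. COL4A4, a collagen IV chain, rose from 0.233 ± 0.186 to 2.04 ± 1.19 FPKM (1.24, adjusted p = 0.0428), while the abundant chain COL4A2 was at 103 ± 14.7 and 130 ± 17.4 (0.34, adjusted p = 0.223). LAMB1, the laminin beta chain of early matrix, was at 19.0 ± 7.75 and 18.8 ± 2.71 FPKM (0.06, adjusted p = 0.932). LAMB2, LAMA2 and LAMA3 were called in all 8 leave-one-out fits, COL4A4 in 1 (adjusted p up to 0.126).

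COL1A2, a chain of the fibrillar collagen I, was high on both days. Of 11 collagen genes, 1 rose, the transmembrane COL13A1 (0.81, adjusted p = 0.0312), and none fell. The COL13A1 call held in 2 of the 8 leave-one-out fits (adjusted p up to 0.116). COL1A2 was at 2968 ± 490 and 3487 ± 238 FPKM (0.25, adjusted p = 0.531) and made up most of the list, which summed to 3692 and 4207 on average. Collagen processing genes moved both ways, with 2 of 16 higher and 2 lower. ADAMTS2, which trims the amino end of procollagen, rose from 33.5 ± 5.61 to 60.8 ± 5.62 FPKM (0.85, adjusted p = 0.0194), and PCOLCE2, which speeds the trimming of the other end, from 13.7 ± 5.37 to 34.9 ± 5.65 (1.35, adjusted p = 0.0364). LOXL1, a cross-linker of elastin, fell from 71.6 ± 5.97 to 47.4 ± 3.10 FPKM (-0.58, adjusted p = 0.0237), and FKBP10, a collagen chaperone, from 136 ± 24.9 to 75.5 ± 12 (-0.84, adjusted p = 0.0462). In the unoperated arteries ADAMTS2 and LOXL1 both rose (0.63 and 0.65, adjusted p = 0.0419 and 0.000409). The ADAMTS2 difference did not pass (adjusted p of the difference = 0.558). Each of ADAMTS2, PCOLCE2 and LOXL1 lost its call without replicate 3 of day 14 and without replicate 1, 3 or 4 of day 30, and the last 2 also without replicate 4 of day 14 (adjusted p up to 0.113). That of FKBP10 held in 1 of the 8 fits (up to 0.132).

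EMILIN1, an elastic fibre glycoprotein that holds back TGF-beta processing, had the smallest adjusted p of the 16 list members that fell. It stood at 78.9, 65.2, 72.5 and 71.7 FPKM at day 14 and 35.7, 31.7, 30.8 and 30.5 at day 30. The later grafts lay near the unoperated arteries (29.7 and 28.2 FPKM), and the fall of -1.14 (SE 0.10, adjusted p = 0.00274) held in all 8 leave-one-out fits. Of 11 elastic fibre genes, MFAP5 rose, EMILIN1 fell and 9 did not pass. MGP, matrix Gla protein, an inhibitor of calcification, stood at 1714, 1941, 1074 and 1010 FPKM and then 6340, 4935, 8454 and 6694. The 2 groups lay far apart, a change of 2.23 (SE 0.30, adjusted p = 0.0111), and the call ended without replicate 4 of day 30 (adjusted p = 0.0512). MGP also rose in the unoperated arteries (0.87, adjusted p = 0.0440), and the graft rise was larger by 1.36 (adjusted p of the difference = 0.0190).

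Few proteases passed the test. Of 28 matrix protease and inhibitor genes, 1 rose and 2 fell, with a median of -0.23. MMP14, the membrane-bound collagenase, stood at 177, 175, 222 and 241 FPKM at day 14 and 85.6, 129, 79.1 and 94.4 at day 30. It fell by 1.07 on the log2 scale (SE 0.19, adjusted p = 0.0224) and stayed far above the unoperated arteries (13.7 and 16.5 FPKM). ADAMTS15, a proteoglycan-cleaving protease, fell from 12.8 ± 3.12 to 4.28 ± 0.892 FPKM (-1.37, adjusted p = 0.0145) and fell also in the unoperated arteries, from 22.2 to 4.51 (-2.08, adjusted p = 3.2e-05). ADAMTS5, another protease of this family, rose from 6.71 ± 1.90 to 14.0 ± 3.15 FPKM (0.96, adjusted p = 0.0499), a call that held in 1 of the 8 leave-one-out fits (adjusted p up to 0.137). The macrophage elastase MMP12 stood at 264, 232, 474 and 527 FPKM and then 134, 456, 156 and 263. Its groups overlapped (-0.65, SE 0.44, adjusted p = 0.421), against under 0.11 FPKM on average in the unoperated arteries of either day. The MMP14 call held in 3 and the ADAMTS15 call in 6 of the 8 leave-one-out fits.

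Thrombospondins, secreted glycoproteins that bind matrix and cell receptors, included 2 genes that rose, while the lower mean of THBS4 at day 30 did not pass. THBS4, the gene in the study's title, stood at 15.3, 71.8, 78.6 and 85.5 FPKM at day 14 and 16.9, 23.7, 11.3 and 18.3 at day 30. Replicate 1 of day 14 lay among the later grafts and the other 3 far above them. The change was -1.57 (SE 0.53, adjusted p = 0.136), with a two-sided exact permutation p of 0.114, where 0.0286 is the smallest that 4 against 4 can give. Without replicate 1 of day 14 the change passed (-2.14, adjusted p = 0.0111), and over the other leave-one-out fits the adjusted p went up to 0.280. THBS4 was at 0.238 and 0.263 FPKM in the unoperated arteries.

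THBS1 stood at 38.5, 54.3, 63.7 and 68.1 FPKM at day 14 and 238, 121, 328 and 239 at day 30, with no overlap (1.97, SE 0.31, adjusted p = 0.0172). In the unoperated arteries it was at 6.11 and 88.7 FPKM (2.80, adjusted p = 0.0785). THBS3 rose from 9.64 ± 1.03 to 18.5 ± 1.83 FPKM (0.87, SE 0.12, adjusted p = 0.0125). THBS2 was under the filter, and COMP was not found by name. TNC, tenascin C of healing tissue, fell from 7.24 ± 2.33 to 2.58 ± 0.632 FPKM (-1.18, adjusted p = 0.0381). Of 17 matricellular genes, THBS1 and THBS3 rose and TNC fell. The THBS1 call ended without replicate 3 of day 14 or replicate 1 or 4 of day 30 (adjusted p up to 0.0672), that of THBS3 without replicate 4 of day 30 (0.0521), and that of TNC held in 2 of the 8 leave-one-out fits.

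Of 33 TGF-beta and BMP genes, 5 rose, none fell and 28 did not pass, with a median of 0.47. The 5 included 3 BMP growth factors, BMP6, BMP5 and BMP2, while BMP3 (0.62, adjusted p = 0.167) and BMP4 (0.68, adjusted p = 0.611) did not pass. BMP6 stood at 0.53, 1.09, 0.84 and 1.42 FPKM at day 14 and 4.36, 3.59, 4.45 and 3.41 at day 30. All later grafts exceeded all earlier ones (1.34, SE 0.18, adjusted p = 0.0111), and BMP6 rose in the unoperated arteries too, from 2.08 to 5.37 FPKM (1.00, adjusted p = 0.0181). BMP5 rose from 1.06 ± 0.267 to 3.83 ± 1.08 FPKM (1.20, adjusted p = 0.0214) and BMP2 from 4.78 ± 1.39 to 10.3 ± 1.84 (0.99, adjusted p = 0.0420). FST, follistatin, which binds activins and BMPs, rose from 0.603 ± 0.490 to 3.40 ± 0.656 FPKM (1.5, adjusted p = 0.0203). ID1, a target of BMP receptors, rose from 35.4 ± 18.1 to 110 ± 35 FPKM (1.68, adjusted p = 0.0442). BMP6 was called in all 8 leave-one-out fits, BMP5 in 4, FST in 3 and BMP2 and ID1 in 2 (adjusted p up to 0.128). In the Wnt list, 1 of 20 rose, the secreted Wnt binder SFRP4, from 4.89 ± 1.99 to 22.9 ± 6.35 FPKM (2.04, adjusted p = 0.0125), and it rose in the unoperated arteries as well (1.70, adjusted p = 0.0113). Its graft call ended without replicate 4 of day 30 (adjusted p = 0.0521).

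A few endothelial genes rose. Of 19 tested, 3 rose, none fell and all 19 were above 0, with a median of 0.65. The same list had a median of 0.61 in the unoperated arteries, where 6 rose. VWF stood at 71.8, 93.5, 48.9 and 43.2 FPKM at day 14 and 150, 116, 131 and 131 at day 30 (1.09, SE 0.24, adjusted p = 0.0499). SELP, P-selectin, which catches leukocytes, rose from 4.72 ± 0.982 to 12.7 ± 2.06 FPKM (1.26, adjusted p = 0.0111). MMRN1, a binding protein of factor V, rose from 7.53 ± 3.49 to 31.8 ± 12.7 FPKM (1.98, adjusted p = 0.0335). CDH5, the junctional VE-cadherin, was at 58.9 ± 20.3 and 78.9 ± 7.69 FPKM (0.48, adjusted p = 0.287). The VWF call held in 1 of the 8 leave-one-out fits (adjusted p up to 0.137), that of MMRN1 in 3 and that of SELP in 7.

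Among genes of venous identity, 3 of 12 rose and none fell, with 9 above 0 and a median of 0.25. ACKR1, a chemokine-binding receptor of venules, stood at 15.4, 15.9, 14.7 and 12.1 FPKM at day 14 and 40.5, 31.1, 41.6 and 41.3 at day 30. The 2 groups were tight and apart (1.35, SE 0.14, adjusted p = 0.00365), while the unoperated arteries went from 7.99 to 3.13 FPKM (-1.25, adjusted p = 0.0543). PTGS1, cyclooxygenase 1, rose from 1.84 ± 0.606 to 6.56 ± 1.24 FPKM (1.42, adjusted p = 0.0132). None of 12 arterial identity genes passed, but 10 were above 0 and their median, 0.51, was higher than that of the venous list. CCL21, the chemokine of lymphatic vessels, stood at 111, 120, 73.5 and 64.1 FPKM and then 321, 250.5, 335 and 311 (1.75, SE 0.22, adjusted p = 0.00906). It was the 1 changed gene of 4 lymphatic endothelial genes, whose median was 0.04. ACKR1 and CCL21 were called in all 8 leave-one-out fits, PTGS1 in 6.

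A few genes of DNA synthesis fell. Of 20 DNA replication genes, 2 fell and none rose, with 1 above 0 and a median of -0.51. MCM6, a subunit of the replicative helicase, stood at 15.7, 17.0, 24.1 and 27.0 FPKM and then 10.9, 12, 7.94 and 10.4 (-0.94, SE 0.21, adjusted p = 0.0489). The sliding clamp PCNA was at 54.8 ± 5.95 and 38.8 ± 4.45 FPKM, not overlapping (-0.49, adjusted p = 0.0703). The MCM6 call held in 1 of the 8 leave-one-out fits (adjusted p up to 0.139).

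None of 18 mitosis genes passed, although all 18 changes were below 0, with a median of -0.77. CDK1, the mitotic kinase, was at 6.48 ± 1.95 and 2.57 ± 0.847 FPKM (-1.05, adjusted p = 0.0634). CCNB2, cyclin B2, stood at 7.71, 10.7, 15.6 and 19.0 FPKM and then 4.20, 8.06, 5.50 and 5.78 (-1.01, adjusted p = 0.0931). Its groups overlapped through replicate 1 of day 14 and replicate 2 of day 30, and without the first it passed (adjusted p = 0.0477). The summed level of the list was 59.1 to 134 FPKM at day 14, 36.1 to 61.5 at day 30 and 4.01 to 9.57 in the unoperated arteries. MKI67 was under the filter.

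Energy genes fell in small numbers. Of 25 glycolysis and hypoxia genes, 4 fell and none rose, with a median of -0.40. LDHA, lactate dehydrogenase A, stood at 262, 273, 357 and 397 FPKM at day 14 and 170, 168, 148 and 161 at day 30. The 4 later grafts were alike and all below the earlier ones (-0.97, SE 0.16, adjusted p = 0.0192), while the unoperated arteries rose from 52.5 to 105 FPKM (0.96, adjusted p = 0.00437). TPI1, triosephosphate isomerase, fell from 352 ± 79.4 to 184 ± 8.99 FPKM (-0.90, adjusted p = 0.0330), GPI, glucose phosphate isomerase, from 173 ± 24.3 to 106 ± 12.8 (-0.70, adjusted p = 0.0381) and BNIP3, a hypoxia-induced mitophagy receptor, from 78.6 ± 10.1 to 48.8 ± 3.78 (-0.67, adjusted p = 0.0273). Of 30 nuclear oxidative phosphorylation genes, 2 fell, the complex III subunit UQCRQ (-0.86, adjusted p = 0.0295) and the complex I subunit NDUFA2 (-0.64, adjusted p = 0.0473), and none rose. The LDHA call held in 4 of the 8 leave-one-out fits, BNIP3 in 3, UQCRQ, NDUFA2 and GPI in 2 and TPI1 in 1 (adjusted p up to 0.143). None of the 13 genes of the mitochondrial genome passed.

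The largest falls among genes with a symbol were of moderate size. BARX1, a homeobox transcription factor, stood at 17.6, 13.2, 16.3 and 15.6 FPKM at day 14 and 4.68, 3.37, 0.25 and 3.18 at day 30 (-2.30, SE 0.44, adjusted p = 0.0299). ITM2C, an integral membrane protein, stood at 12.3, 11.3, 14.6 and 16.1 FPKM and then 4.97, 3.09, 2.50 and 3.41 (-1.71, SE 0.20, adjusted p = 0.00592). Every later graft of both genes was below every earlier one, and ITM2C was called in all 8 leave-one-out fits, BARX1 in 3. PTN, pleiotrophin, a heparin-binding growth factor, fell from 37.5 ± 6.05 to 11.6 ± 5.28 FPKM (-1.69, adjusted p = 0.0182). PTK7, a receptor of the planar polarity pathway, fell from 16.6 ± 2.80 to 5.71 ± 1.65 (-1.42, adjusted p = 0.0153). AKR1B1, aldose reductase, fell from 188 ± 73.1 to 68.9 ± 14.1 (-1.37, adjusted p = 0.0458). The others were CMBL, a hydrolase (-1.75, adjusted p = 0.0246), TMEM98 (-1.55, adjusted p = 0.0132) and MCP2, a name taken from the RefSeq table (-1.87, adjusted p = 0.0219). TMEM98 was called in 7 of the 8 leave-one-out fits, PTK7 in 6, PTN, CMBL and MCP2 in 4 and AKR1B1 in 2 (adjusted p up to 0.125).

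A further 3 falls belonged to genes of macrophages and iron. CHIT1, the chitinase of activated macrophages, stood at 31.0, 28.0, 33.0 and 34.2 FPKM at day 14 and 6.98, 15.3, 10.9 and 15.9 at day 30 (-1.35, SE 0.24, adjusted p = 0.0238). PYCARD, the inflammasome adaptor, fell from 16 ± 0.991 to 5.65 ± 2.29 FPKM (-1.42, adjusted p = 0.0224), and SLC40A1, the iron exporter ferroportin, from 16.3 ± 1.83 to 6.0 ± 2.16 (-1.34, adjusted p = 0.0155). The SLC40A1 change differed from that in the unoperated arteries by -0.37 (adjusted p of the difference = 0.538). The differences of CHIT1 and PYCARD were -1.69 and -2.05 (adjusted p of the difference = 0.00392 and 0.00875). None of the 16 listed macrophage genes passed, with 4 above 0 and a median of -0.40, and their summed level was 745 to 1963 FPKM and then 831 to 1505. CD14, a receptor for lipopolysaccharide, was at 228 ± 80.6 and 111 ± 18.4 FPKM (-0.98, adjusted p = 0.0860). HMOX1, heme oxygenase 1, was at 236 ± 201 and 30.4 ± 18.6 FPKM, not overlapping (-2.60, SE 0.78, adjusted p = 0.105). The lysosomal and lipid list had 1 rise in 25, the lipoprotein receptor SCARB1, from 26.5 ± 7.28 to 59.6 ± 4.25 FPKM (1.18, adjusted p = 0.0156). The CHIT1, PYCARD, SLC40A1 and SCARB1 calls held in 4, 6, 6 and 5 of the 8 leave-one-out fits.

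Lymphocyte and interferon genes did not pass, with 1 exception. None of 9 T and NK cell, 20 interferon and 12 antigen presentation genes changed. JCHAIN, the joining chain of secreted antibodies, stood at 67.9, 28.1, 43.8 and 45.0 FPKM at day 14 and 270, 80.2, 413 and 243 at day 30 (2.27, SE 0.49, adjusted p = 0.0473). Replicate 2 held the lowest level on each day, and the call held in 1 of the 8 leave-one-out fits, that without replicate 2 of day 30 (adjusted p up to 0.135). In the unoperated arteries JCHAIN was at 0.753 and then 7.58 FPKM (2.11, adjusted p = 0.0524). The graft change differed from that by 0.16 (adjusted p of the difference = 0.931).

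Apoptosis genes, the other subject of the study's title, gave 1 call. Of 16 apoptosis-promoting genes, BNIP3 fell and none rose, and none of 14 restraining genes passed. BAX, the pore-forming promoter of apoptosis, stood at 31.3, 29.6, 38.7 and 52.1 FPKM at day 14 and 15.3, 34.1, 25.3 and 32.5 at day 30. The groups overlapped, and the change was -0.51 (SE 0.28, adjusted p = 0.320). BCL2, which restrains BAX, stood at 0.51, 0.57, 1.22 and 1.58 FPKM and then 0.83, 2.07, 1.17 and 0.82 (0.18, SE 0.25, adjusted p = 0.721). The medians of the promoting and restraining lists were -0.30 and 0.16.

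In the remaining lists few members passed. Of 19 genes of smooth muscle phenotypic modulation, MGP, THBS1 and the adhesion molecule ICAM1 (0.84, adjusted p = 0.0390) rose and TNC fell. MGP was also the 1 changed gene of 12 osteochondrogenic genes. Of 15 complement and coagulation genes, F3 and CD59, which blocks the membrane attack complex, rose, the latter from 14.6 ± 3.44 to 39.7 ± 12.7 FPKM (1.34, adjusted p = 0.0384). CD59 rose in the unoperated arteries too (0.62, adjusted p = 0.0261), and the difference did not pass (adjusted p of the difference = 0.159). CCL21 was the 1 changed gene of 21 cytokine and chemokine genes, and SLC40A1 that of 14 heme and iron genes. Of 17 endoplasmic reticulum genes, the stress-induced factor MANF fell from 173 ± 29.6 to 111 ± 5.85 FPKM (-0.62, adjusted p = 0.0484). None passed among 17 heat shock, 11 Notch, 6 neutrophil and mast cell, 12 nerve and Schwann cell, 6 striated muscle and 3 erythroid genes, whose medians were -0.06, 0.32, -0.30, 0.02, 0.16 and 0.80. The hemoglobin gene HBB2, a sign of blood in the sample, ranged from 644 to 3911 FPKM at day 14 and from 1941 to 4687 at day 30. The CD59 and MANF calls each held in 2 of the 8 leave-one-out fits and that of ICAM1 in 1 (adjusted p up to 0.143).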

How the data were processed

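Total RNA of 20 rabbit vessel samples was sequenced from paired ends, per the labels' protocols. Per the submitters' processing notes, tools were DESeq2, RSEM, StringTie, HISAT2 and fastp; versions and the genome build are not given in the sources used here. For 24964 transcripts the authors deposited FPKM, so read depth and counting errors are unknown. FPKM were summed to 23669 genes, 1278 with more than 1 transcript. The filter of 1 FPKM in 4 or more libraries left 8657: 6907 had a symbol in the deposited table, 613 took one from RefSeq (mOryCun1.1) and 1137 had none.

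Log2(FPKM + 1) values of the 8 grafts were compared with limma 3.58.1 (variance trend, two-sided, Benjamini-Hochberg over 8657 genes, threshold 0.05) in R 4.3.3. Errors are limma's SE of log2 changes and SD of FPKM over 4 libraries. The unoperated arteries were fitted alone, and the difference of both changes over 16 libraries with a weight per group. THBS4 was also tested by exact permutation. In simulated data with the spread of each group, 29 of 178 calls were false among 8657 genes with 200 changed, and 61% and 88% of genes changed by 1 and 2 on the log2 scale were recovered. With equal spread, 5 of 146 were false. Named are the 12 largest rises and falls with a symbol, no overlap and a mean of 5 FPKM or more on the higher day, up to 3 members of each of 43 lists with the smallest adjusted p (2 of the highest level where none passed) and a fixed set around THBS4. Other list members were added for their level or role after their values were seen. A few of the genes so chosen are left out of the text. Members and lists were chosen with earlier results of these data known. Alternatives were other pseudocounts, filters, scalings, weights and sets of libraries, and a replicate block.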

Additional observations from a re-analysis of the deposited data

Results flagged for a closer look

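In groups of 4 libraries, the highest or lowest library stood far from the nearest of the others for 8 of 204 gene and group pairs tested over 102 named genes, and chance marks about 1 in 20. At day 14, replicate 2 stood high for MFAP5 (45.1 FPKM), replicate 1 low for THBS4 (15.3), and replicate 4 low for the mitochondrial ATP8 (listed at 0) and high for G3BP1 (0.07, the others at 0). At day 30, replicate 2 stood low for ACKR1 (31.1) and MFAP5 (79.8) and high for SLC40A1 (9.23), and replicate 3 stood low for ATP8 (9.92). Of the 8, 4 were in the replicate 2 libraries.

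The difference of the day change between grafts and unoperated arteries was examined gene by gene for the 24 largest rises and falls and THBS4, and 17 of these passed limma's test of that difference (adjusted p under 0.05). Over all 102 named genes 57 passed it, 31 positive and 26 negative, so the 17 are a subset. The change in grafts exceeded that in unoperated arteries on the log2 scale for PDILT by 6.05, EPYC 3.59, F3 3.54, P2RX1 2.83, ADH1A 2.78, IL17D 2.64, G3BP1 2.50, EPHB2 1.98 and RARRES1 1.55. For PDILT the unoperated arteries fell while the grafts rose. The difference was negative for PTN (-2.47), MCP2 (-2.09), PYCARD (-2.05), AKR1B1 (-1.72), CHIT1 (-1.69), THBS4 (-1.60), PTK7 (-1.12) and ITM2C (-1.06). That of THBS4 did not pass with equal weights for all libraries (adjusted p = 0.088). Without the 2 blend-like grafts, those of ADH1A, RARRES1, ITM2C, PTK7 and THBS4 did not pass (adjusted p = 0.162, 0.0817, 0.0704, 0.16 and 0.168), and the other 12 did.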

How the results depend on the processing

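The checks of direction covered 102 named genes, 68 of them called in the grafts, while the leave-one-out counts above covered 69 called genes. None of the 68 changed direction in the 20 other settings of the graft comparison. In the settings that only left out libraries this was fixed in advance, because the days did not overlap for any called gene. Of the 102 named, 11 that did not pass had another sign in some setting, such as HSPA8 at -0.05 and, without the 2 blend-like grafts, 0.20. The 321 calls (218 higher, 103 lower) became 1412 (693 and 719) in a fit on all 20 libraries, 307 of them shared, and 4392 (1841 and 2551) with a weight for each library. They became 1 (0 higher, 1 lower) without the 2 blend-like grafts, and scaling each library to the same sum left 14 lower calls. The difference between graft and unoperated changes passed for 295 genes (150 positive, 145 negative) without the blend-like grafts, against 924. With the replicate number as a block, 25 genes passed (22 higher, 3 lower), 23 of them among the 321. Same-numbered grafts deviated together at r = 0.281, 0.0257, 0.0451 and 0.0337, 1 of the 4 above 0.1. The first was the highest of any pair, and not every library correlated best with its own number. No label states a pairing by number, and these correlations cannot exclude one. With 1 graft left out, calls ran from 55 to 383, higher calls from 48 to 288 and lower calls from 7 to 158. In unoperated arteries, with 1 library left out, they ran from 689 to 1566, from 395 to 885 and from 294 to 681. THBS4 passed on all 20 libraries (-1.57, adjusted p = 0.00986) and with a weight for each library (-2.02, adjusted p = 0.000482), and its change ran from -2.14 to -1.34 with 1 graft left out (adjusted p = 0.0111 to 0.280). The cause of these shifts was not tested. The median of 30 of 43 gene lists kept its sign in every setting. FPKM without read counts leave the counting error of low genes unknown.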

Other observations

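The 3 families below were picked after their values were seen, so their counts are descriptions. Of 11 circadian clock genes tested, 4 rose, none fell, 7 did not pass and all 11 were above 0, with a median log2 change of 0.85. NR1D2, a nuclear receptor that represses clock genes, rose from 17.7 ± 2.88 to 52.5 ± 8.09 FPKM (SD, n = 4 in each group), by 1.52 (adjusted p = 0.00365). Its relative NR1D1 rose from 3.70 ± 0.302 to 9.28 ± 2.20 FPKM, and the output factors TEF and HLF rose from 5.35 ± 1.41 to 11.9 ± 1.83 and from 0.843 ± 0.446 to 4.21 ± 1.91. None of these 4 passed in the unoperated arteries, where 2 other clock genes rose, PER2 (0.87, adjusted p = 0.00715) and BHLHE40 (1.90, adjusted p = 0.0123). In the grafts those changes were 0.56 and 0.41 (adjusted p = 0.108 and 0.520). The NR1D2 call held in all 8 leave-one-out fits, NR1D1 and TEF in 5 and HLF in 1 (adjusted p up to 0.124).

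Of 13 genes of the laminin-binding complexes of muscle membranes, 5 rose, none fell and 8 did not pass, with a median of 0.58. DAG1, dystroglycan, did not pass (0.12, adjusted p = 0.864). UTRN, utrophin, rose from 8.99 ± 2.16 to 21.6 ± 1.68 FPKM (1.20, adjusted p = 0.0125), and EGFLAM, pikachurin, which binds dystroglycan, from 1.54 ± 0.770 to 6.55 ± 1.14 (1.61, adjusted p = 0.0152). The laminin-binding integrins ITGA7 and ITGA3 rose by 1.37 and 1.34 (adjusted p = 0.0238 and 0.0345) and the sarcoglycan SGCB by 1.72 (adjusted p = 0.0141). SGCB was listed at 0, 0, 0 and 0.82 FPKM at day 14 and at 4.25, 2.68, 2.22 and 2.45 at day 30. ITGA7 was listed at 0.68, 1.00, 0 and 0.17 FPKM at day 14 and at 3.30, 2.20, 2.67 and 2.45 at day 30. Such a 0 can be a failed estimate. The UTRN call held in 7 of the 8 leave-one-out fits, EGFLAM and SGCB in 6, ITGA7 in 3 and ITGA3 in 2.

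Of 10 tubulins, the subunits of microtubules, 5 fell, none rose and all 10 were below 0, with a median of -0.69. TUBB fell from 73.4 ± 9.21 to 37.8 ± 4.94 FPKM (-0.94, adjusted p = 0.0129) and TUBA4A from 34.1 ± 13.6 to 12.3 ± 2.05 (-1.33, adjusted p = 0.0427). TUBB2A, TUBB4A and TUBG1 fell by 0.68, 0.59 and 0.70 on the log2 scale. TUBB fell in the unoperated arteries too (-1.51, adjusted p = 0.00077), where TUBA4A rose (0.62, adjusted p = 0.0422). The TUBB call held in 6 of the 8 leave-one-out fits, TUBB4A in 3, TUBA4A and TUBG1 in 2 and TUBB2A in 1 (adjusted p up to 0.125).

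The largest falls of all belonged to 2 genes without a symbol. ENSOCUG00000009170 stood at 28.0, 23.3, 32.4 and 30.5 FPKM at day 14 and was listed at 0.06 in 1 graft of day 30 and at 0 in the other 3. ENSOCUG00000025196 stood at 24.1, 17.8, 14.8 and 8.55 FPKM at day 14 and was listed at 0 in all 4 grafts of day 30. A listed 0 can be a failed estimate.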
